A study of Mus musculus with 8 samples.

Results

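A set of 7 genes that are used as markers of microfold cells, though several are not specific to them, was followed through mouse small intestinal organoids treated with CHIR99021, valproic acid (VPA) or both. The genes are Gp2, Spib, Ccl20, Tnfaip2, Ccl9, Ctss and Marcksl1, and they were taken as every array probe whose transcript accession maps to 1 of these symbols in RefSeq. All 7 genes were matched, by 8 probes, among 18749 genes with a symbol on the array. Of the 7, 6 were among the 19270 genes bright enough to be tested, and Gp2 was not.

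Organoids are self-organising epithelial cultures that grow in Matrigel from intestinal crypts. They came from 2 independently established wild-type lines, and each was cultured for 6 days under 4 conditions: control medium, CHIR99021 at 3 µM, VPA at 1 mM, or the pair at these doses, with 2 arrays per condition. CHIR99021 inhibits the kinase GSK3 and so activates Wnt signalling, and VPA inhibits histone deacetylases. Each array carried the sample's RNA in Cy5 (red) and control RNA of the same line in Cy3 (green), and the control arrays carried control RNA in both dyes. All groups share the wild-type background, and each culture is a mixed epithelium without the lymphoid tissue that lies under microfold cells in the gut. The labels name no added RANKL.

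Microfold (M) cells are the antigen-sampling cells of the epithelium over Peyer's patches. Stromal cells beneath this epithelium make RANKL (Tnfsf11), which acts on its receptor RANK (Tnfrsf11a) on epithelial cells and signals through NF-kB. The Ets-family transcription factor Spib and the SRY-box factor Sox8 drive maturation, at which point the surface receptor Gp2, which binds bacteria for uptake, appears. Ccl20 and Ccl9 are chemokines that draw lymphocytes and dendritic cells, and several of these genes are also active in other epithelial cells.

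The windows of 200 bases before the start of the 4 genes with the largest differences from control are shown because Ets factors such as Spib and the NF-kB proteins bind short DNA motifs. They are RefSeq promoter sequences of mouse build GRCm38.p6, written 5′ to 3′ on the gene's own strand, with every match to a searched motif in capitals. The motifs were an Ets core (GGAAG), a kappaB motif for NF-kB (GGG, then 5 bases of any kind, then CC) and an interferon regulatory factor (IRF) motif (GAAA, then 2 bases of any kind, then GAAA), each searched on both strands with overlaps counted. The IRF motif was added after the Ctss window had been seen.
Spib, chr7:44532072-44532271, minus strand: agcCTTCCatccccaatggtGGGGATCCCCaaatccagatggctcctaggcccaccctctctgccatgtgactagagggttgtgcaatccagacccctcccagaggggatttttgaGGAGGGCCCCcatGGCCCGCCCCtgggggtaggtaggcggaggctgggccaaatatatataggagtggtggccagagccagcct
Ccl20, chr1:83116566-83116765, plus strand: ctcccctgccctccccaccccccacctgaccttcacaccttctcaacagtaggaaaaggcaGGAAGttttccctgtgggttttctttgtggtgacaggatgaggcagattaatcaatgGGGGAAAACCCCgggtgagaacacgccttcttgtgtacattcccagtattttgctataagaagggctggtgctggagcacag
Ccl9, chr11:83578637-83578836, minus strand: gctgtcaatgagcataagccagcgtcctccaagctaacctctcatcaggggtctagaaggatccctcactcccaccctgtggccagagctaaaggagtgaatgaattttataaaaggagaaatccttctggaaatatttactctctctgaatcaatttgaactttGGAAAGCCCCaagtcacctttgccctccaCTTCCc
Ctss, chr3:95526586-95526785, plus strand: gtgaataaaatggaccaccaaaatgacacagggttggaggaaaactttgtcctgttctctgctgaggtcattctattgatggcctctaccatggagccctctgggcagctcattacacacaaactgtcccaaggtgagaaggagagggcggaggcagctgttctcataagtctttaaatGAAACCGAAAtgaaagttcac

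The Ccl20 window held overlapping kappaB matches that began 80 to 82 bases before the start and an Ets match 139 bases before it. Spib had kappaB matches 71, 84 and 180 bases before its start, and an Ets match at 197. Ccl9 had a kappaB match at 35 bases and an Ets match at 6, and the Ctss window held the IRF match, 21 bases before its start, as its only match. Of the 7 genes, 4 had an Ets match, 5 a kappaB match and 1 an IRF match, against 56.8%, 41.4% and 2.27% of 32851 mouse promoter windows of this length. The Ets and kappaB letters are thus common in any such window, and a match is not a measured binding site.

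On each array, the software marked 60.6 to 64.6% of spots as well above background in Cy5 and 0 as saturated. The control ratios of both lines, which compare 1 RNA with itself, correlated across genes (r = 0.82, over genes that are not independent replicates), so a ratio carries a probe's own dye bias, and changes are given as the treated ratio minus the control ratio. The samples correspond to 2 lines, and the line is also the slide, so line and slide cannot be told apart. Ptprc, the common leukocyte antigen, was well above background on 3 of 8 arrays with a Cy5 intensity of at most 29.6, and Spi1, Cd3d and Itgax were so on none, whereas Cd3e was on all 8, at 120.2 to 229. The 18 blood cell markers that had a probe summed to a Cy5 intensity of 932 to 1080 on control arrays, 972 to 1010 with CHIR99021, 1250 to 1270 with VPA and 1180 to 1230 with both. Of 11 tested, 0 were called with CHIR99021, and Cd79b, named after its value was seen, fell with VPA and with both. The 11 epithelial markers summed to between 789000 and 1.20e+06 on every array, in intensities not scaled between arrays. Of these 11, 1 fell with CHIR99021, 3 fell with VPA, and 5 fell and 1 rose with both. Shares of all genes called lower were 0.95%, 4.2% and 7.1%, and 8.42% were called higher with both. The keratin Krt8 fell in each (-0.75, -0.84 and -1.01), Krt18 with VPA and with both (-0.64 and -0.71), and Lgals4 with both (-1.25). Cdh1 rose with both (0.51), and Epcam did not pass in any (0.07, 0.02 and 0.06). The part of this in the members' values was not tested.

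Gp2, the receptor that defines mature M cells, was not measurable in these organoids. Its Cy5 signal was well above background on 1 of 8 arrays, the control of line 1, at an intensity of 19.1, and its Cy3 signal on 0 of 8. On the other 7 arrays its Cy5 intensity lay between 3.95 and 16.5. Sox8 was well above background on none of the arrays, with intensities of 4.05 to 22.2, as were the ligand Tnfsf11 (2.99 to 7.71) and the adhesion molecule Icam2. The receptor Tnfrsf11a was well above background on all 8, at 806 to 2186. No fold change is given for Gp2. Mature M cells were thus not seen through Gp2, the late marker of the set, and the genes are called by name here.

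**Figure D1:**
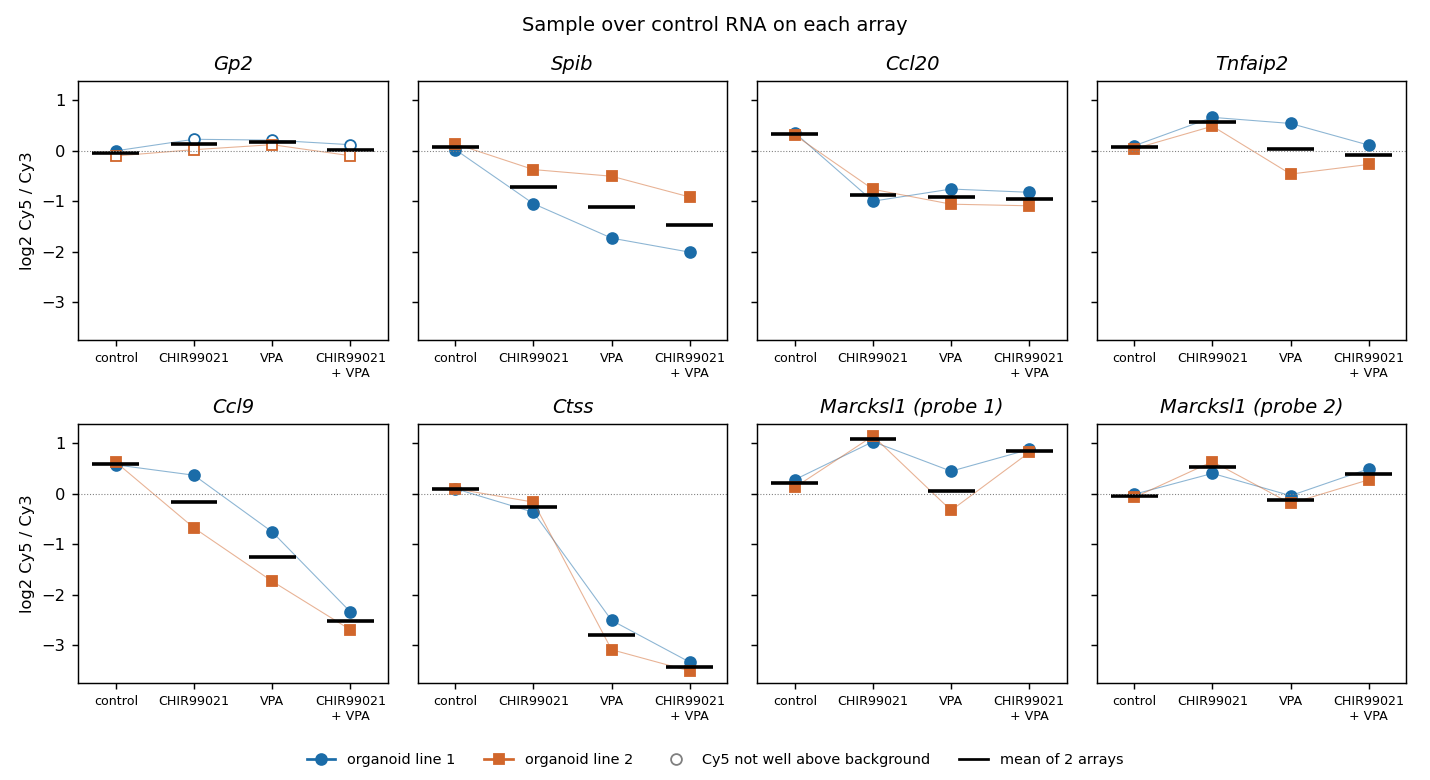
Each panel shows 1 probe, with the log2 ratio of sample (Cy5) to control RNA (Cy3) on the vertical axis and the 4 groups along the horizontal axis; circles are organoid line 1, squares line 2, black bars the mean of 2 arrays, and open symbols arrays on which Cy5 was not well above background. Ctss drops to between -2.50 and -3.51 on all 4 arrays with VPA, Ccl20 to about -0.76 to -1.09 on all 6 treated arrays, and Gp2 is open on 7 of 8.

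Of the 6 genes tested, 3 fell with VPA and with both compounds, and 1 fell with CHIR99021. Ctss, a lysosomal cysteine protease that trims the invariant chain in antigen presentation, fell most, 7.45-fold with VPA and 11.5-fold with both. The chemokine Ccl9 fell 3.59-fold with VPA and 8.65-fold with both, and Ccl20 fell about as far in each treatment, 2.32-fold with CHIR99021, 2.36-fold with VPA and 2.44-fold with both. None of the 6 rose in any comparison, although Marcksl1 was above its control in both lines with CHIR99021 and with both compounds. Calls are from limma's moderated test with Benjamini-Hochberg adjustment over all 19270 genes at a threshold of 0.05. Over all genes, 0.109% were called higher and 0.95% lower with CHIR99021, 6.54% higher and 4.2% lower with VPA, and 8.42% higher and 7.1% lower with both.

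Ctss was low on every array with VPA, in both lines. Its log2 ratio was 0.10 in control medium in each line, -0.36 and -0.16 under CHIR99021, -2.50 and -3.08 under VPA, and -3.33 and -3.51 under both compounds. The processed Cy5 intensities, which are not scaled between arrays, were 13161 and 11608 in control, 10933 and 11597 under CHIR99021, 2830 and 1771 under VPA, and 1462 and 1249 under both compounds. All 4 arrays with VPA lay far below the 4 without it. Both compounds against VPA alone differed by -0.62 ± 0.19, which did not pass (adjusted p = 0.214). Ctss fell by 2.90 ± 0.19 with VPA (log2, SE, n = 2 arrays per group, adjusted p = 0.00102) and fell by 3.52 ± 0.19 with both (adjusted p = 0.000366). The difference with CHIR99021 alone was -0.37 ± 0.19 and did not pass (adjusted p = 0.509). The spot's local background in CHIR99021 line 1 was marked as an outlier by the software. The calls of Ctss with VPA and with both were kept under every alternative that was run. In bulk RNA such as this, fewer cells of a type and less RNA per cell cannot be told apart.

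Ctss fell with VPA while several other lysosomal genes rose. Of 17 cathepsins, cystatins and other lysosomal genes tested, 6 rose and 1 fell with VPA, the latter Ctss itself. With both compounds 6 rose and 2 fell, and with CHIR99021 none was called. Shares over all genes were 6.54% higher and 4.2% lower with VPA, and 8.42% and 7.1% with both. Ctsl, the cathepsin that does in some other cells what Ctss does in antigen-presenting cells, rose by 1.81 ± 0.24 with VPA (adjusted p = 0.00832) and by 2.57 ± 0.24 with both (adjusted p = 0.00176). The carboxypeptidase Ctsa rose by 0.91 ± 0.11 and 0.92 ± 0.11, and the asparaginyl endopeptidase Lgmn by 1.36 ± 0.25 with VPA. Lamp2, a lysosomal membrane protein, rose by 0.72 ± 0.10 with both. The median change of the list was 0.33 with VPA and 0.36 with both, against -0.00036 and 0.0066 over all genes tested.

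The ratio of Ccl9 was highest in control and lowest with both compounds in each line, with CHIR99021 and VPA in that order between them. Its log2 ratio was 0.58 and 0.63 in control, 0.37 and -0.67 under CHIR99021, -0.75 and -1.73 under VPA, and -2.33 and -2.69 under both compounds, for lines 1 and 2. In line 1 its Cy5 intensity was 4130, 4593, 2193 and 586 in these groups, and in line 2 it was 1592, 821, 310 and 139. CHIR99021 alone is where the lines parted most: line 1 differed from its control by -0.21 and line 2 by -1.30. Ccl9 fell by 1.84 ± 0.41 with VPA (log2, SE, adjusted p = 0.0374) and fell by 3.11 ± 0.41 with both (adjusted p = 0.00513), and the difference with CHIR99021 was -0.75 ± 0.41 (adjusted p = 0.525). The array with both compounds of line 2 had a marked local background at this spot.

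The VPA call of Ccl9 was close to the threshold. It ended without either control array (adjusted p = 0.202 without line 1 and 0.203 without line 2), without the VPA array of line 2 (0.118), with Agilent's own ratio (-2.15, 0.0809), with a normexp offset of 10 (0.0580) with outlier-marked spots kept in the background model (0.0547) and with marked-background spots left out (0.0553, chosen after seeing the data). Tested against 0, without the control arrays, the size was -0.15 with CHIR99021, -1.24 with VPA and -2.51 with both, and the calls with VPA and with both held. The call with both compounds ended only without control line 1 (0.0537) or line 2 (0.0531), and its size was -3.72 by Agilent's ratio. With the organoid line as a block, adjusted p was 0.00710 for VPA and 0.000889 for both.

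Ccl20 was lower than control by a like amount in all 3 treatments. Its log2 ratio was 0.36 and 0.31 in control, -0.998 and -0.76 under CHIR99021, -0.76 and -1.06 under VPA, and -0.82 and -1.09 under both compounds. The 6 treated arrays lay between -0.76 and -1.09, far from both controls, and the 3 treated groups overlapped one another. The falls were 1.21 ± 0.15 with CHIR99021 (adjusted p = 0.0281), 1.24 ± 0.15 with VPA (adjusted p = 0.00607) and 1.29 ± 0.15 with both (adjusted p = 0.00344). Both compounds against CHIR99021 differed by -0.07, with a 95% interval of -0.43 to 0.28, and against VPA by -0.05, with an interval of -0.41 to 0.31. The combination lay 1.17 ± 0.21 above the sum of the single differences, in both lines (1.29 and 1.04), with an unadjusted p of 0.00108 and an adjusted p of 1.00, and no gene of the 19270 was called for such a departure from additivity (0% of all genes, 505 at an unadjusted p under 0.05).

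The CHIR99021 call of Ccl20 ended when any 1 of the 4 arrays compared was left out: adjusted p was 0.324 and 0.330 without control line 1 or 2, and 0.151 and 0.150 without CHIR99021 line 1 or 2. It also ended with Agilent's ratio (-1.77, 0.0871) and with outlier-marked spots kept in the background model (-0.77, 0.444). The VPA call ended without control line 1 (0.0787) or line 2 (0.0709). Agilent's ratio gave larger differences for this dim probe, -1.94 with VPA and -1.96 with both, whose calls held.

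Among 16 chemokines and their receptors tested, which include Ccl20 and Ccl9, 1 fell with CHIR99021, 1 rose and 4 fell with VPA, and 1 rose and 5 fell with both. Shares of all genes called lower were 0.95%, 4.2% and 7.1% in these comparisons, and called higher 0.109%, 6.54% and 8.42%. Ccl6, a close relative of Ccl9 among the CC chemokines, fell by 2.91 ± 0.52 with VPA (adjusted p = 0.0207) and fell by 4.91 ± 0.52 with both (adjusted p = 0.00257). Ccl25, the gut-homing chemokine of the small intestine, fell by 2.11 ± 0.23 with both. Cxcl5 rose by 0.41 ± 0.09 with VPA, but was dim. It was well above background on only 4 of 8 arrays, at Cy5 intensities of 2.73 to 51.7. Ccr6, the receptor of Ccl20, was well above background on all 8 arrays at intensities of 71.0 to 166, and Ccr1, the receptor of Ccl9, on none.

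**Figure D2:**
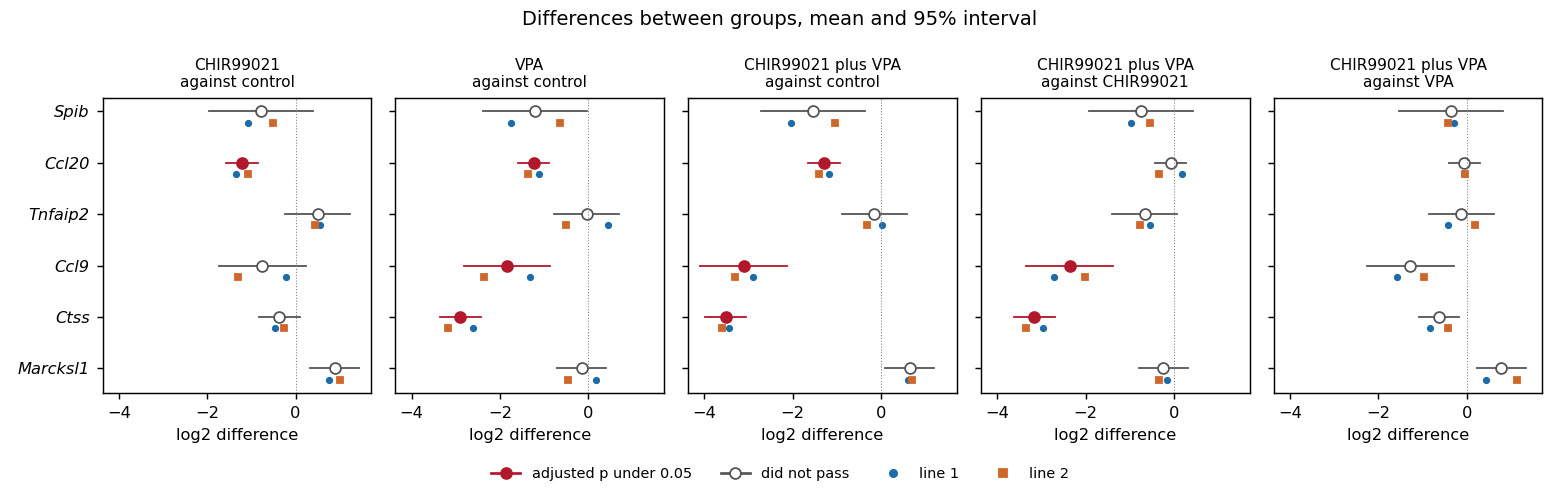
Each panel is 1 comparison, with the log2 difference on the horizontal axis; large circles are the fitted mean with its 95% interval, filled red where the adjusted p was under 0.05, and small symbols are the differences within line 1 and line 2. Ctss and Ccl9 are red in the 3 comparisons that add VPA, Ccl20 in the 3 comparisons with control, and the Spib intervals are the widest.

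Spib, the Ets factor required for M cell maturation, was lower on every treated array than in its own line's control, with lines that differed in size, and did not pass. Its log2 ratio was 0.02 and 0.14 in control, -1.05 and -0.37 under CHIR99021, -1.73 and -0.50 under VPA, and -2.01 and -0.92 under both compounds. The order of the groups was the same in each line, and line 1 was lower than line 2 in every treatment. The differences were -0.79 ± 0.49 with CHIR99021 (adjusted p = 0.593), -1.20 ± 0.49 with VPA (adjusted p = 0.186) and -1.54 ± 0.49 with both (adjusted p = 0.0835). With the organoid line as a block, which takes out the gap between lines, Spib passed with VPA (adjusted p = 0.0223) and with both (adjusted p = 0.00719), and not with CHIR99021 (0.167).

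Spib was dimmer in line 2. Its Cy5 intensity was 123 in control and 39.2 with both compounds, against 506 and 78.5 in line 1, and the normexp offset of 50 draws ratios of such dim spots towards 0. Agilent's own ratio, without that offset, gave -2.25 and -3.04 for both compounds in lines 2 and 1, and fitted differences of -2.08 with VPA (adjusted p = 0.0437) and -2.67 with both (adjusted p = 0.0162). An offset of 10 gave -2.14 with both (adjusted p = 0.0509). Median centring (adjusted p = 0.0350), testing against 0 (0.0357) and leaving out either VPA array (0.0481) or the line 2 array with both compounds (-2.09, 0.0441) also brought the call with both past the threshold. Without VPA line 1 the VPA difference was -0.58, and without VPA line 2 it was -1.81.

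Spib is also a tuft cell gene. The 12 tuft cell markers tested, Spib among them, had a median change of -0.78 with CHIR99021, -1.01 with VPA and -1.52 with both, and 0, 1 and 2 of them fell. The summed Cy5 intensity of the 13 with a probe was 11900 to 18100 in control, 22700 to 23200 with CHIR99021, 11100 to 12500 with VPA and 10500 to 15800 with both. This sum is mostly Cd24a, which read 9505 to 21874 and is not specific to tuft cells. Cd24a differed by 0.54 with CHIR99021 (adjusted p = 0.355), opposite in sign to the list's median. Ccl9 is in turn in the goblet cell list, of which 11 genes were tested, and 1, 8 and 10 fell, with medians of -0.90, -1.58 and -2.79. The goblet markers' summed intensity was 157000 to 239000 in control, 111000 to 168000 with CHIR99021, 114000 to 160000 with VPA and 44100 to 58400 with both. The part of tuft and goblet cells in the values of Spib and Ccl9 was not tested. Of 18 Ets family genes tested, 1 rose and 2 fell with VPA and 1 rose and 4 fell with both. Spdef, the goblet and Paneth cell factor, fell by 1.58 ± 0.20 with VPA and fell by 2.66 ± 0.20 with both, and Elk3 rose by 2.28 ± 0.29 and 2.63 ± 0.29. Beside these list counts, 0.95%, 4.2% and 7.1% of all genes were called lower with CHIR99021, VPA and both. The shares called higher were 0.109%, 6.54% and 8.42%.

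Marcksl1, a MARCKS-family protein that binds actin and the plasma membrane, was above its control with CHIR99021 and with both compounds in each line. The log2 ratios of its brighter probe were 0.28 and 0.13 in control, 1.04 and 1.15 under CHIR99021, 0.45 and -0.33 under VPA, and 0.88 and 0.82 under both compounds. All 4 arrays with CHIR99021 lay above the 4 without it. The differences were 0.88 ± 0.23 with CHIR99021 (adjusted p = 0.173), -0.14 ± 0.23 with VPA (adjusted p = 0.762) and 0.64 ± 0.23 with both (adjusted p = 0.117), none of which passed. The second probe gave 0.56, -0.07 and 0.43 for the same comparisons, of the same sign and smaller. With CHIR99021, Marcksl1 passed when only the groups compared were fitted (adjusted p = 0.00696), when its ratio was tested against 0 (1.09, 0.0223) and without either VPA array (0.0256); with both compounds the same settings gave 0.0296, 0.0185 (0.85) and 0.0119.

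Tnfaip2, also called M-Sec, which promotes membrane nanotubes, had no difference that passed. Its log2 ratio was 0.10 and 0.04 in control, 0.66 and 0.49 under CHIR99021, 0.54 and -0.46 under VPA, and 0.11 and -0.27 under both compounds. The lines lay together with CHIR99021 and apart with VPA, on opposite sides of their controls. The differences were 0.50 ± 0.31 with CHIR99021 (adjusted p = 0.582), -0.03 ± 0.31 with VPA (0.968) and -0.15 ± 0.31 with both (0.803). Fitted with only the groups compared, the CHIR99021 difference passed (adjusted p = 0.0415). Of 15 MARCKS, M-Sec and exocyst genes tested, 2 rose and 1 fell with VPA and with both. Shares over all genes were 6.54% higher and 4.2% lower with VPA, and 8.42% and 7.1% with both. The exocyst subunit Exoc3 rose by 0.73 ± 0.10 with VPA and Exoc6 fell by 0.57 ± 0.10.

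Ctss and Ccl9 were lower with both compounds than with CHIR99021 alone. Against CHIR99021 alone, Ctss fell by 3.16 ± 0.19 (adjusted p = 0.00124) and Ccl9 by 2.36 ± 0.41 (adjusted p = 0.0190), where 6.15% of all genes were called higher and 3.81% lower. The Ccl9 call ended with only the groups compared (0.0698), with marked-background spots left out (0.0641), without control line 1 or 2 (0.0575 each), without CHIR99021 line 1 (-1.84, 0.0894) and without line 1 (-2.54, 0.0571) or line 2 (-2.18, 0.0526) of both compounds, and it was -3.001 by Agilent's ratio (adjusted p = 0.0400). Tnfaip2 lay 0.65 ± 0.31 below CHIR99021 alone (adjusted p = 0.251), and passed without either VPA array (0.0488). Adding CHIR99021 to VPA gave 0 calls among the 6 by limma, and 0 with the line as a block. Over all genes, 0.0882% were called higher and 1.02% lower by limma at the adjusted threshold. At an unadjusted p under 0.05 there were 3 of the 6, beside 2705 of all 19270 genes. The 3 were Ccl9 (-1.27 ± 0.41, adjusted p = 0.235), Ctss (-0.62 ± 0.19, adjusted p = 0.214) and Marcksl1 (0.79 ± 0.23, adjusted p = 0.201), and Marcksl1 passed without VPA line 1 (1.18, 0.0264). Over the 6 genes, the median difference was -0.56 with CHIR99021, -1.22 with VPA and -1.42 with both, against 0.0084, -0.00036 and 0.0066 over all genes. These comparisons share their control arrays.

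**Figure D3:**
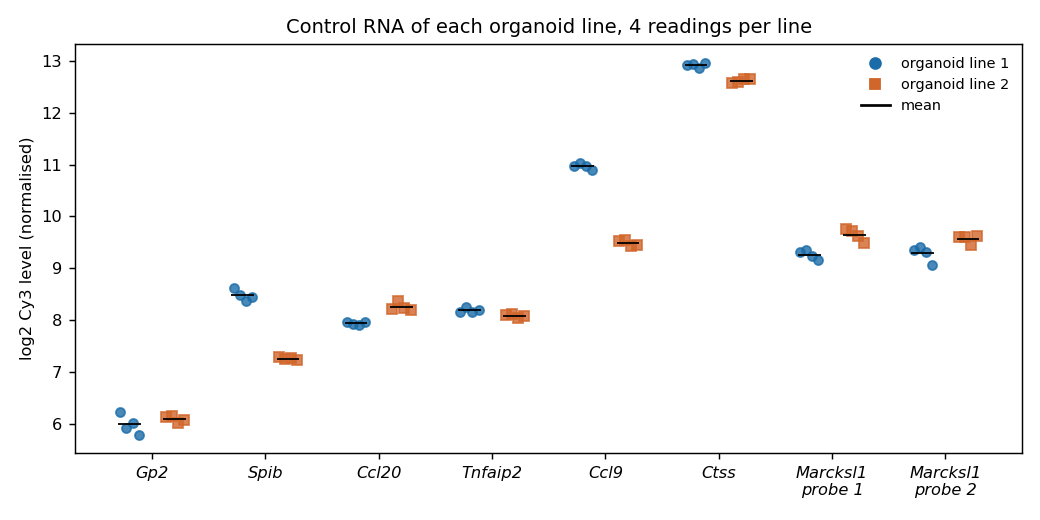
Points are the log2 Cy3 level of each probe (normalised brightness, vertical axis) in the control RNA of each line, read on 4 arrays per line; circles are line 1, squares line 2, and bars the mean. Spib and Ccl9 are the probes whose lines stand apart most, and levels of different probes are not comparable.

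Control RNA was read in Cy3 on 4 arrays per line, so each line's starting level could be set out apart from any treatment. These are repeat readings of 1 control condition per line, so their spread is technical and no test between lines is given. All 4 readings of a line lie on 1 slide, so a gap between lines here cannot be told apart from a gap between slides. Spib read 8.48 ± 0.11 (log2 level, SD over 4 readings) in line 1 and 7.26 ± 0.02 in line 2, a 2.33-fold higher level in line 1. Ccl9 read 10.97 ± 0.05 and 9.48 ± 0.06, 2.80-fold higher in line 1. Ctss was 1.24-fold higher in line 1, Ccl20 1.24-fold and Marcksl1 1.30-fold higher in line 2, and the lines were within 1.08-fold of each other for Tnfaip2.

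Other genes known from M cells moved in both directions with VPA and with both compounds. Of 22 such genes, 17 were tested; 0 were called with CHIR99021, 2 rose and 2 fell with VPA, where 6.54% of all genes were called higher and 4.2% lower, and 3 rose and 2 fell with both, where the shares were 8.42% and 7.1%. Anxa5, a phospholipid-binding annexin, rose by 1.43 ± 0.31 with VPA (adjusted p = 0.0340) and 1.91 ± 0.31 with both (adjusted p = 0.00950). The nuclear receptor Esrrg rose by 0.54 ± 0.13 and 0.57 ± 0.13, and Cyba, an NADPH oxidase subunit, by 0.45 ± 0.08 with both. Fcgbp, which goblet cells secrete with mucus and which is also in the goblet list, differed by -1.105 ± 0.17 with VPA and -2.39 ± 0.17 with both, and fell in each. Atoh8, a transcription factor, fell by 0.69 ± 0.15 with VPA. Clu fell by 1.16 ± 0.28 with both (adjusted p = 0.0388), and is named after its value was seen. The list's median was 0.29 with CHIR99021, 0.08 with VPA and 0.16 with both.

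The RANK and NF-kB pathway was mostly measurable, with 22 genes tested of 26 listed. None was called with CHIR99021, 1 rose and 2 fell with VPA, and 2 rose and 4 fell with both. Shares over all genes were 6.54% higher and 4.2% lower with VPA, and 8.42% and 7.1% with both. Relb, the subunit of the alternative NF-kB pathway, fell by 0.70 ± 0.12 with both (adjusted p = 0.0135), and Ltbr, the lymphotoxin receptor that feeds this pathway, by 0.81 ± 0.14 (adjusted p = 0.0112). Rela, the subunit of the classical pathway, fell by 0.50 ± 0.09 with VPA (adjusted p = 0.0186), and the ubiquitin ligase Birc3 fell by 0.63 ± 0.14 with VPA and 0.68 ± 0.14 with both. The inhibitor Nfkbie rose by 0.55 ± 0.12 and 0.46 ± 0.12. The receptor Tnfrsf11a, named outside the rule because it is RANK, differed by 0.47 with VPA (adjusted p = 0.0620), and with the line as a block adjusted p was 0.0148. The list's median was -0.04, -0.03 and 0.0028 in the 3 comparisons with control.

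**Figure D4:**
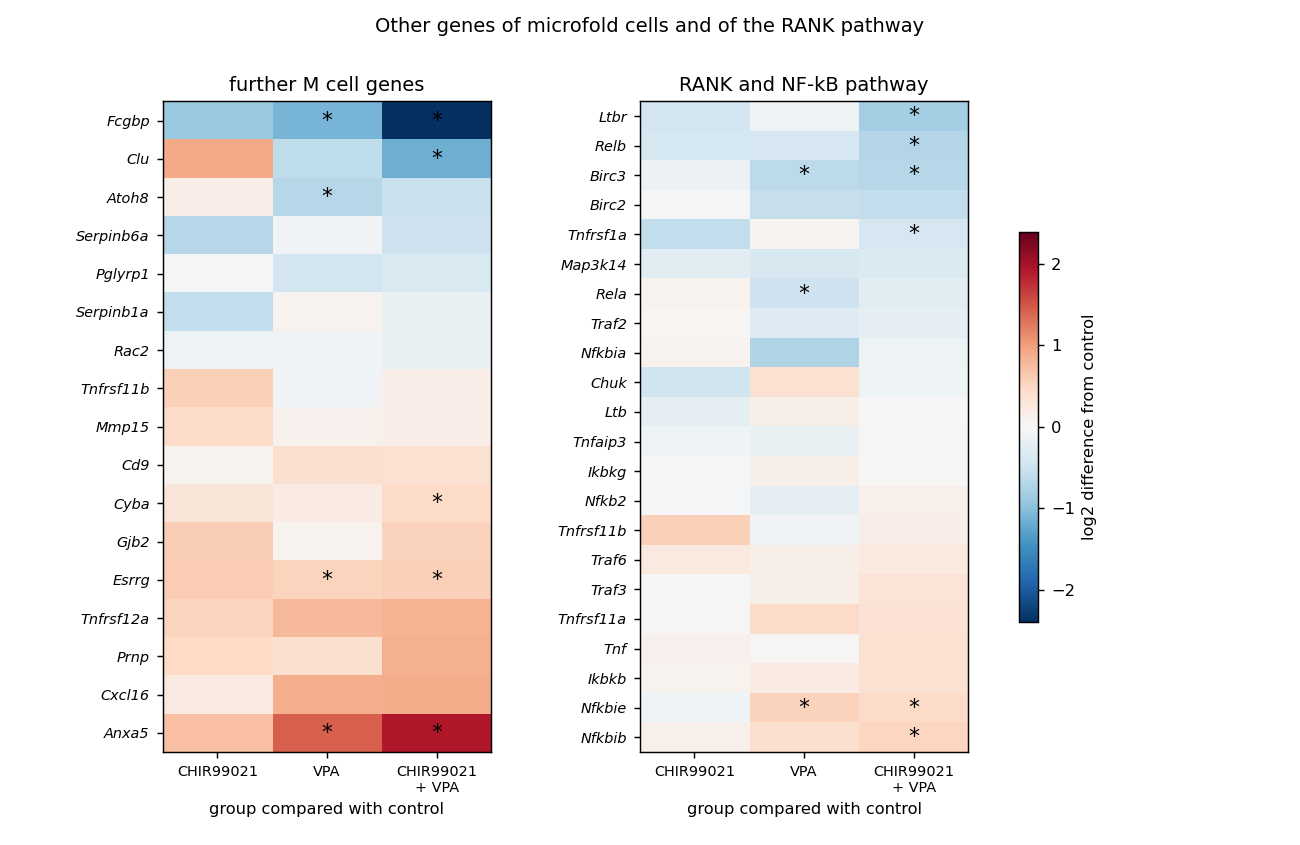
Colour gives the log2 difference from control of each tested gene (rows) with CHIR99021, VPA or both (columns), for other M cell genes on the left and the RANK and NF-kB pathway on the right, and an asterisk marks an adjusted p under 0.05. Anxa5 is the strongest red and Fcgbp the strongest blue, and no CHIR99021 column holds an asterisk.

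Genes whose ratios followed each member most closely over the 8 arrays were picked by Pearson's r among 3927 genes with an SD of at least 0.3, as a description over arrays that share treatments and lines. Spib was followed by Slc16a10, an amino acid transporter (r = 0.996), Fyb (0.995) and Plekha6 (0.988). Ctss was followed by Cenpv (0.994), Tmem254a (0.992) and Lxn (0.988), and Ccl9 by the alpha-defensin Defa39 (0.984), the short-chain fatty acid receptor Ffar2 (0.981) and Smpd3 (0.973). Ccl20 ran closest to the keratin Krt8 (0.981), Prss30 (0.972) and the beta-defensin Defb37 (0.965). The closest genes were less alike for Tnfaip2 (Cenpi, 0.943; H1f3, 0.933; Cstf2, 0.930) and Marcksl1 (Tubb4a, 0.936; Snhg3, 0.932; Cdc42ep1, 0.931). Among the members themselves, Ccl9 and Ctss were most alike (r = 0.92), and Spib and Marcksl1 ran most apart (r = -0.39).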

How the data were processed

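Organoid RNA was extracted on RNeasy columns and labelled in 2 colours (Quick Amp), per the labels' protocols, with no dye swap. Agilent Feature Extraction, version 10.5.1.1 in the file headers, made the spot values. Deposited intensity values are linear: the raw medians of spot and local background for each dye, and processed signals that the software had background-subtracted and dye-normalised. The deposited log10 ratio is the software's own Cy5 over Cy3, per the file headers. The authors' series table holds log2 values that equalled that ratio within 5e-10 for 19228 spots, 7 of the 8 member spots among them, which settles its scale, direction and lack of further centring. In line 1 its medians ran 0.0039 (control), 0.017 (CHIR99021), -0.028 (VPA) and -0.0080 (both), and in line 2 they ran 0.0057, 0.036, -0.024 and -0.0027. Deposited 0 or 1 flags for background, saturation and outliers were also used.

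Spot medians were corrected for background with normexp (offset 50, fitted without outlier-marked spots) and loess-normalised within each array, with 1639 control spots of 45018 at weight 0, in limma 3.58.1 under R 4.3.3. Outlier-marked spots were left out, spots of a probe averaged, and each gene represented by its brightest probe. A gene was tested where some group had its Cy5 signal marked well above background on both arrays, which left 19270 (13983 with a symbol; 63 were dropped for a marked spot). Names come from the RefSeq table of GRCm38.p6, matched by accession for 27479 of 41174 probes, while the array files name build mm9. Group means were fitted over all 8 arrays with 4 residual degrees of freedom, and 6 contrasts were tested with Benjamini-Hochberg adjustment at 0.05. P-values measure the spread between 2 lines, and the number of arrays limits precision.

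Replicate numbers are organoid lines, so they pair the samples; deviations of the same line correlated between groups (r = 0.12 to 0.75). The fit without that block was kept as the main one, with the block as an alternative. Other alternatives changed the background model, offset, normalisation, filter, probe choice, variance model, baseline and arrays used. Named are all 7 members, the 3 genes closest to each member, and genes from the lists. The list genes were drawn mainly from those called with the smallest adjusted p-values (at most 4 per comparison with control). Not all of these are named, and some genes, such as Cd24a, are named outside this rule. The members and lists were chosen with earlier results of these data known. The method was tested on simulated data.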

Additional observations from a re-analysis of the deposited data

Results flagged for a closer look

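In 5 cases the lines lay on opposite sides of 0 for the same comparison, with 1 array pair per line, and the difference between lines was not tested. Tnfaip2 differed from control with VPA by 0.44 in line 1 and -0.50 in line 2, and with both compounds by 0.012 and -0.31. Both compounds against VPA alone gave -0.43 and 0.19 for Tnfaip2. Marcksl1 differed from control with VPA by 0.17 in line 1 and -0.46 in line 2. Ccl20 with both compounds against CHIR99021 differed by 0.18 in line 1 and -0.33 in line 2. None of these 5 differences passed the test over both lines.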

How the results depend on the processing

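Of 660 member differences under other settings, 595 kept their direction and their side of the threshold, 24 lost a call, 21 gained one and 20 changed sign. Fitting the line as a replicate block gave 1 call among the 6 genes with CHIR99021, 4 with VPA, 4 with both, 2 for both against CHIR99021 and 0 for both against VPA; the additions were Spib with VPA and with both, and no other member call changed. Over all genes the block raised the calls from 204 to 552 with CHIR99021, from 2071 to 3727 with VPA and from 2991 to 4823 with both. The single CHIR99021 call became 0 with outlier-marked spots kept in the background model and with Agilent's own ratio. The count was 3 with only the groups compared, and 2 against 0, where both compounds gave 5. A ratio tested against 0 keeps its probe's dye bias. Both against CHIR99021 gave 1 with only the groups compared and 1 with marked-background spots left out, an alternative chosen after seeing the data. The number of all genes called under these settings is not given here, so these counts are not read as a result about the members. Leaving out 1 array at a time changed the number of members called in every comparison except the departure from additivity. In such fits the lone array left in a group is assumed to vary like the others.

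Changes of sign concerned differences that had not passed. Against 0, VPA gave 0.040 for Tnfaip2 and 0.063 for Marcksl1. Median centring gave 0.019 for Ccl20, both against VPA, and outlier-marked spots gave 0.084 for the additivity of Marcksl1. Leaving out 1 array, VPA gave -0.53 to 0.47 for Tnfaip2 and -0.53 to 0.24 for Marcksl1, and both compounds gave -0.34 to 0.042 for Tnfaip2. Both against CHIR99021 gave -0.21 to 0.059 for Ccl20. Both against VPA gave -0.96 to 0.27 for Spib, -0.20 to 0.10 for Ccl20 and -0.62 to 0.38 for Tnfaip2. The departure from additivity ran from -0.17 to 1.06 for Spib, -1.04 to 0.0048 for Ccl9, -0.55 to 0.032 for Ctss and -0.48 to 0.29 for Marcksl1. The cause of these changes was not tested. Signal over background limits Gp2. Spib was marked well above background on all 8 arrays, but some of its spots were dim. With both compounds in line 2 its Cy5 spot median was 155.5 over a local background of 110.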
